A study of Mus musculus with 18 samples.

Results

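Mutations in the VH186.2 heavy chain segment were compared between mice with a nuclease-dead EXO1 protein (Exo1DA/DA, 8 mice) and mice without the protein (Exo1-/-, 3 mice). These are 11 of the 18 mice of the series. The other 7 mice, Exo1+/+, are given beside them as the control level and entered no test. The Exo1DA allele was made with CRISPR/Cas9 in fertilized C57BL/6 oocytes and replaces an aspartate of the nuclease active site by alanine, while Exo1-/- mice come from an earlier knockout line. All mice were age-matched on the C57BL/6 background. Each had received NP(33)-CGG on alum 1 time, intraperitoneally, and the spleen was taken on day 10. The protocol gives the dose as 200 µg and the sample characteristics give it as 200 mg. VH186.2 (IGHV1-72*01, gene symbol Ighv1-72) carries most of the response of C57BL/6 mice to the hapten NP and was amplified by nested PCR from cDNA of spleen cells. Both alleles are germline alleles, so they are not specific to B cells. Each exact permutation p-value is the share of divisions of the mice into groups of the same sizes with a mean difference at least as large. The mouse is the unit there, since the clones of 1 mouse are not independent of each other.

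Somatic hypermutation begins when AID deaminates a cytosine of the V gene to uracil. Replication across the U:G mispair gives transitions at G:C, removal of the uracil by UNG opens the way to other changes there, and mismatch repair extends the process to A:T pairs. In this second phase EXO1 resects a stretch of the strand and DNA polymerase eta fills it, with a known preference for errors at A in WA motifs. EXO1 is both a nuclease and a binding partner of other mismatch repair proteins, and the mutants separate these roles: Exo1DA/DA removes the nuclease activity alone, and Exo1-/- removes the protein with both.

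The germline sequence of the 256 nucleotides compared, rebuilt from the deposited mutation lists and numbered from the first base of VH186.2, starts at nucleotide 30. It is given 5 times on the coding strand, because the comparison turns on which sites were hit. The first line has in capitals the overlapping AID hotspots WGCW (GC with an A or a T on either side, the G and C marked). The second has the A of each WA motif (an A after A or T). The other 3 lines have in capitals the positions that were changed in 1% or more of the mutated clones, as the mean over mice, in both mutants, in Exo1DA/DA only and in Exo1-/- only.
WGCW hotspots: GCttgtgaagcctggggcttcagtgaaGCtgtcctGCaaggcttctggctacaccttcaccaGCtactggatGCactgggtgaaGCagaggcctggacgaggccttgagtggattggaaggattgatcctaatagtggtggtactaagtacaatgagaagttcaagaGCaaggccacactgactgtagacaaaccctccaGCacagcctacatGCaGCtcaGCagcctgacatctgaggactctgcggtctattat
WA motifs: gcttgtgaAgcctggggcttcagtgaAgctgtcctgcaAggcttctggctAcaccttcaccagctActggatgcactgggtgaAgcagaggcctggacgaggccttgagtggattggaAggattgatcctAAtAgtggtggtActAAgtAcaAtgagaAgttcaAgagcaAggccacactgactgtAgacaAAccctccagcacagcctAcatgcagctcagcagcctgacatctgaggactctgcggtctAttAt
Changed in both mutants: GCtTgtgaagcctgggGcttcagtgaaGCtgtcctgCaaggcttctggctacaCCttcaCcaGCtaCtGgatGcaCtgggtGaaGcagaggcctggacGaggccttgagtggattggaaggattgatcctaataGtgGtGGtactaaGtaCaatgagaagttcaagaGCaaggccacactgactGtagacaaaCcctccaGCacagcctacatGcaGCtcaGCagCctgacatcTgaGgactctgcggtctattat
Changed in Exo1DA/DA only: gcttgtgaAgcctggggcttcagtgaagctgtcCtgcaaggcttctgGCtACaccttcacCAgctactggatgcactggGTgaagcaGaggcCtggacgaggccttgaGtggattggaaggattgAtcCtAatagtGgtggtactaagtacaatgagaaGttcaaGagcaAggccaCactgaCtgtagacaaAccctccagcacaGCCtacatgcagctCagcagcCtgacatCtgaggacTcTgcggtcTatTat
Changed in Exo1-/- only: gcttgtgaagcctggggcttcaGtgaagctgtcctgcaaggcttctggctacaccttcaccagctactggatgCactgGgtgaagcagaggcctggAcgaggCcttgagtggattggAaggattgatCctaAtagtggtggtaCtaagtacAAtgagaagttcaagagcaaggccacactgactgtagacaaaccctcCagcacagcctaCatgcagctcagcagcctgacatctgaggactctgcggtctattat
The capitals of the third line fall almost wholly on G and C, and 18 of them on WGCW sites. None of them is the A of a WA motif.

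The lists hold 1 line per mutation of a sequence drawn for a CDR3 clone. A sequence was weighted by the share of the 1000 drawings in which it was taken, so the values below count clones with at least 1 mutation, per drawing. Clones without a mutation have no line. There were 617.9 such clones in Exo1DA/DA mice (21.0 to 167.8 per mouse) and 410.7 in Exo1-/- mice (70.95 in mouse 293, 254.2 in mouse 294 and 85.5 in mouse 295). With counting error alone, 0 changed clones of the pooled Exo1DA/DA set would allow a share of up to 0.486%, and 0 of the Exo1-/- set up to 0.730%. Mice are named by the dataset number of the lists, which could not be tied to the mouse numbers of the labels.

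Some mice stood apart before any comparison. Mouse 294 gave 61.9% of the Exo1-/- clones and 81.7% of their mutations. The leading lineage (sequences with 4 or more mutations, linked where at least 0.7 of the mutations of a pair were common to both) held 69.5% of the clones of mouse 294, and 67.9%, 60.9% and 98.1% of those of Exo1DA/DA mice 296, 300 and 301. In mouse 301, 96.3% of its clones carried the 4 changes G114A, C158T, G177A and C180T together (original base, position, new base). The same 4 changes together were found in 1 clone each of Exo1DA/DA mice 296, 297, 298 and 303, in 1.78 clones of mouse 302, and in 1 clone each of Exo1-/- mice 293 and 295. Where these clones came from was not tested. Exact sets of 6 or more mutations were shared between the mutants in 7 cases, and these made up 17.4% of the clones of mouse 294, 33.4% of those of Exo1DA/DA mouse 300, 11.7% and 6.00% of those of mice 296 and 298, and 3.12% or less in the other mice. Sharing with any other mouse, of the same or another genotype, went further. Of clones with 6 or more mutations, it covered 57.4%, 53.2% and 32.1% in Exo1DA/DA mice 301, 296 and 302. It covered 6.67% to 35.1% in the other Exo1DA/DA mice and 43.5%, 19.5% and 33.3% in Exo1-/- mice 293, 294 and 295. The sequence numbers of Exo1-/- mouse 295 and Exo1DA/DA mouse 296 interleaved over 1 stretch that holds 8.87 and 8.44 clones, though no number was used by both. Without the sequences whose exact set of 6 or more mutations was shared between mice, 1 of the 43 differences reported below changed its sign. None of the 43 then passed the exact permutation test. Shared sequences with fewer mutations and similar but unequal sets stayed in, here and wherever shared sequences are left out below.

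Mutations at G and C were the bulk in both mutants, and no difference between them was larger than the spread between mice. The mutation frequency at G, in mutations per mutated clone per 1000 G sites, ran from 24.1 over a median of 41.9 to 72.2 in Exo1DA/DA mice. It was 32.0, 78.8 and 14.0 in Exo1-/- mice 293, 294 and 295. The Exo1-/- mice thus lay on both sides of the whole Exo1DA/DA range, and the means were 44.3 ± 18.7 (SD, n = 8) and 41.6 ± 33.4 (SD, n = 3), with 32.9 ± 7.66 (SD, n = 7) in Exo1+/+ mice. Without mouse 294 the Exo1-/- mean was 23.02. The difference was 2.65 (95% interval -36.0 to 35.9), and the 2-sided exact permutation test over mice gave p = 0.873 (n = 8 and 3; the smallest p this design allows is 0.00606). At C the frequency ran from 13.1 over 29.8 to 48.0 in Exo1DA/DA mice and was 27.3, 40.5 and 7.70 in the Exo1-/- mice, with a difference of 3.62 (95% interval -18.0 to 23.7; exact permutation p = 0.697, n = 8 and 3). These intervals hold differences as large as the level of the Exo1+/+ mice, so 3 null mice do not show that the mutants acted alike at G:C.

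Transitions, the changes left when an AID lesion is replicated, led at both G and C. G-to-A changes, in mutations per mutated clone per 1000 G sites, numbered 14.9 at the lowest, 37.0 at the median and 60.2 at the highest in Exo1DA/DA mice. In the Exo1-/- mice they numbered 26.7, 56.2 and 8.37. The means were 34.4 ± 14.9 (SD, n = 8) and 30.4 ± 24.2 (SD, n = 3), against 20.0 ± 6.82 (SD, n = 7) in Exo1+/+ mice. Without mouse 294 the Exo1-/- mean of G-to-A changes fell to 17.5, and without mouse 295 the difference turned to -7.02. C-to-T changes had means of 27.1 ± 12.1 (SD, n = 8) and 22.7 ± 16.9 (SD, n = 3) per 1000 C sites, with the Exo1-/- mice at 27.2, 36.9 and 4.08, and the difference turned to -4.98 without mouse 295. Mouse 295 was below every Exo1DA/DA mouse for both transitions, and mouse 294 was inside their range.

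Transversions at G:C pairs need removal of the uracil or another repair step, and the Exo1-/- mice differed widely among themselves. G-to-C changes were at 4.38, 15.3 and 0.996 per 1000 G sites in Exo1-/- mice, and from 0.00900 over 2.14 to 7.89 in Exo1DA/DA mice. The difference of -3.85 (95% interval -10.0 to 2.18) had the lowest p of the 12 base changes, 0.212 by the exact permutation test (n = 8 and 3; adjusted over the 12 base changes, 0.826), and without mouse 294 it turned to 0.372. G-to-T changes had means of 6.76 ± 6.50 (SD, n = 8) in Exo1DA/DA and 4.28 ± 3.16 (SD, n = 3) in Exo1-/- mice, the second being 2.81 without mouse 294. C-to-G and C-to-A changes were rarer, with means of 1.27 and 0.435 in Exo1DA/DA mice and 1.496 and 0.942 in Exo1-/- mice per 1000 C sites. The C-to-G difference turned to 0.0124 without mouse 294 and to 0.264 without mouse 295. The C-to-A means fell to 0.212 without mouse 303 (Exo1DA/DA) and to 0.585 without mouse 294 (Exo1-/-). The share of transitions among the changes at C was high in all 8 Exo1DA/DA mice, from 88.3% over 95.8% to 99.1%. It was 99.8%, 91.1% and 53.0% in Exo1-/- mice 293, 294 and 295. The means of 94.6% and 81.3% gave the lowest p of all 43 measures, 0.170 by the exact permutation test (n = 8 and 3; adjusted over 7 shares, 0.730), and without mouse 295 the difference turned from 13.3 to -0.796 percentage points.

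**Figure D1:**
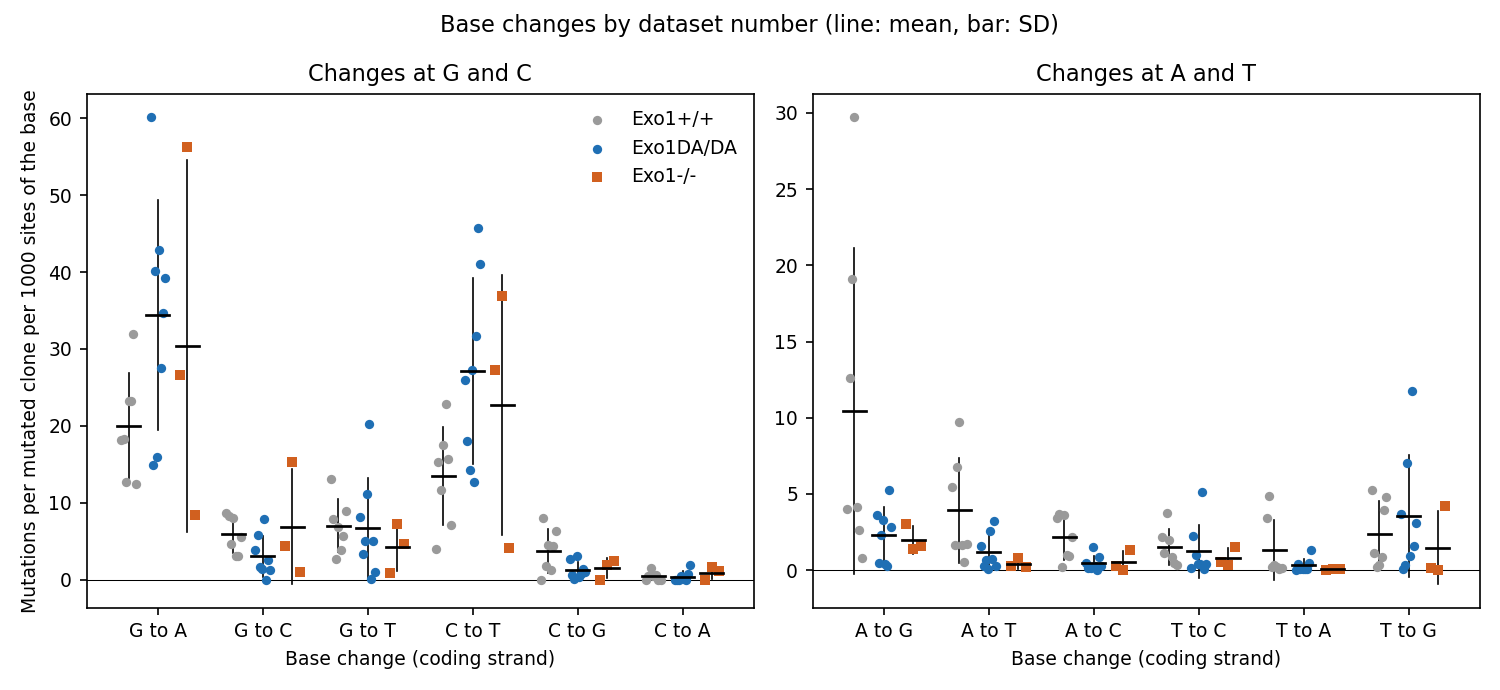
Frequency of the 12 base changes on the coding strand, in mutations per mutated clone per 1000 sites of the germline base, with 1 point per mouse, the mean as a line and the SD as a bar. The 3 Exo1-/- squares lie far apart at G and C (G-to-A changes from 8.37 to 56.2) and overlap the 8 Exo1DA/DA points, and at A both mutants lie below the highest Exo1+/+ mice.

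Mutations at A and T are ascribed largely to the repair phase in which EXO1 acts. At A the frequency was 3.50, 2.17 and 3.12 per mutated clone per 1000 A sites in the Exo1-/- mice. In Exo1DA/DA mice it ran from 0.953 over 3.29 to 9.32, and in Exo1+/+ mice from 4.12 over 12.9 to 43.1. All Exo1-/- values thus lay inside the Exo1DA/DA range and below every Exo1+/+ mouse. The means were 3.95 ± 2.72 (SD, n = 8) and 2.93 ± 0.684 (SD, n = 3), and their difference was 1.02 (95% interval -2.55 to 4.68; exact permutation p = 0.570, n = 8 and 3). The 95% interval reaches 4.68, above both mutant means and above the lowest Exo1+/+ mouse. Thus 3 null mice do not show that the mutants acted alike at A.

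A-to-G changes, which polymerase eta is known to favour, were the leading change at A in the means of both mutants. In Exo1DA/DA mice 300 and 301 A-to-T changes led instead, at 2.56 against 0.411 and at 0.739 against 0.270 per 1000 A sites. A-to-G changes numbered 3.00, 1.37 and 1.57 per 1000 A sites in the Exo1-/- mice and from 0.270 over 2.59 to 5.26 in the Exo1DA/DA mice. In Exo1+/+ mice their mean was 10.4 ± 10.7 (SD, n = 7). The difference of 0.337 between the mutants was small against an interval from -2.51 to 2.84 (exact permutation p = 0.745, n = 8 and 3). The means of A-to-T changes were 1.17 (Exo1DA/DA) and 0.425 (Exo1-/-), and those of A-to-C changes 0.464 and 0.530. Without mouse 294 the Exo1-/- mean of A-to-T changes was 0.238, and without mouse 295 that of A-to-C changes was 0.130, which turned the difference to 0.334.

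At T the mutants differed more in their means than at A, but single mice carried this. The frequency at T was 0.667, 0.441 and 5.82 per 1000 T sites in Exo1-/- mice, and from 1.40 over 3.28 to 16.9 in Exo1DA/DA mice, with mouse 301 at 16.9. The means were 5.10 ± 5.20 (SD, n = 8) and 2.31 ± 3.04 (SD, n = 3; exact permutation p = 0.448), against 5.22 in Exo1+/+ mice. Without mouse 295 the difference rose from 2.80 to 4.55, and without mouse 301 it was 1.11. T-to-G changes led in the means, with 4.24 in mouse 295, 11.7 in mouse 301 and 7.07 in Exo1DA/DA mouse 299. T-to-C changes led in Exo1-/- mice 293 (0.516 against 0.115 T-to-G) and 294 (0.342 against 0.0432) and in Exo1DA/DA mice 297 and 298, and without mouse 295 the Exo1-/- mean of T-to-G changes fell from 1.47 to 0.0791. The changes T-to-C and T-to-A had means of 1.23 and 0.312 in Exo1DA/DA mice and 0.797 and 0.0458 in Exo1-/- mice. For T-to-C changes the Exo1DA/DA mean fell to 0.676 without mouse 301, which turned the difference to -0.122, and the Exo1-/- mean fell to 0.429 without mouse 295. For T-to-A changes the Exo1DA/DA mean fell to 0.170 without mouse 303.

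The share of all mutations that fell on A or T was 6.24%, 1.99% and 26.4% in Exo1-/- mice 293, 294 and 295. It ran from 4.66% over 7.85% to 20.5% in Exo1DA/DA mice and from 11.1% over 28.4% to 44.9% in Exo1+/+ mice. Mouse 295 lay above every Exo1DA/DA mouse and near the Exo1+/+ median, and mouse 294 lay below all other mutants. The means of 10.1% ± 5.42 (SD, n = 8) and 11.5% ± 13.0 (SD, n = 3) did not differ beyond this spread (exact permutation p = 0.770, n = 8 and 3). In mouse 295 the frequencies at G and C, 14.0 and 7.70, were the lowest of all 11 mutants, that at A was 3.12, inside the Exo1DA/DA range, and that at T was 5.82. Without it, the sign of the difference turned and Exo1DA/DA mice were 5.98 percentage points higher.

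Among the 43 measures of base changes, shares, site classes and mutation load, 0 had an exact permutation p below 0.05 (n = 8 and 3; lowest p 0.170, lowest p after Benjamini-Hochberg adjustment within a family 0.624). The Exo1DA/DA mean was the higher one in 29 and the Exo1-/- mean in 14. The ranges of the mutants overlapped in all 43, and in 17 every Exo1-/- mouse lay inside the range of the Exo1DA/DA mice. When mutations of all mice were pooled and every site of every clone was counted as independent, a chi-squared test gave p = 4.2e-10 at G, with Exo1-/- higher by 10.5, and p = 2.5e-14 at T, with Exo1DA/DA higher by 4.14. Mouse 294 holds 81.7% of the pooled Exo1-/- mutations, and that test contains no spread between mice.

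The site classes put these mutations in their sequence context. WGCW sites, where AID hotspots of both strands overlap, make up 22 of the 256 nucleotides. Their mutation frequency, per 1000 sites of the class, was 88.6, 234.6 and 36.0 in Exo1-/- mice and from 44.7 over 121.4 to 156.5 in Exo1DA/DA mice. Exo1-/- mice again lay above and below the whole Exo1DA/DA range, with means of 119.7 ± 102.9 (SD, n = 3) and 103.8 ± 45.9 (SD, n = 8), against 69.7 ± 24.6 (SD, n = 7) in Exo1+/+ mice. The difference of -16.0 (95% interval -108.4 to 83.3; exact permutation p = 0.685, n = 8 and 3) turned to 41.5 without mouse 294.

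As a share of a mouse's mutations, which takes out the load, WGCW sites held 45.7%, 61.8% and 39.2% in the Exo1-/- mice. In Exo1DA/DA mice they held 20.6% at the lowest, 44.0% at the median and 59.4% at the highest, and in Exo1+/+ mice the median was 28.6%. The lowest Exo1DA/DA shares were those of mouse 301 and of mouse 299 at 20.9%. The mean difference was -8.19 percentage points (95% interval -28.3 to 12.8; exact permutation p = 0.461, n = 8 and 3), and it was 1.12 without mice 294 and 301.

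At G:C sites outside WGCW the Exo1DA/DA means were the higher ones, though not under every setting for GYW and other G:C sites. WRC sites (a C after A or T and then A or G, outside WGCW; 10 sites) had 56.5, 26.3 and 5.94 mutations per 1000 sites in Exo1-/- mice and a mean of 48.8 ± 30.3 (SD, n = 8) in Exo1DA/DA mice, and without mouse 293 the Exo1-/- mean fell from 29.6 to 16.1. GYW sites (a G before C or T and then A or T; 7 sites) had 56.4, 166.7 and 10.1 in Exo1-/- mice against 105.6 ± 66.3 (SD, n = 8). The GYW difference of 27.9 turned to -5.94 without mouse 295 and to -0.647 with each lineage as 1 clone, and without mouse 294 the Exo1-/- mean fell from 77.7 to 33.3. The other 95 G:C sites had 11.4, 16.8 and 5.95 against 15.4 ± 5.62 (SD, n = 8), a difference that turned to -0.0358 with each distinct set of mutations counted once. Exact permutation p values for these classes were 0.345, 0.582 and 0.321 (n = 8 and 3).

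WA sites are where polymerase eta leaves its mark, and the means of both mutants there were below the Exo1+/+ mean of 29.7, a difference that was not tested. The 24 WA sites had 0.762, 5.21 and 2.73 mutations per 1000 sites in Exo1-/- mice. In Exo1DA/DA mice they had from 0.885 over 4.99 to 22.8, and in Exo1+/+ mice from 3.80 over 14.9 to 86.8. Of the 8 Exo1DA/DA values, 4 lay inside the Exo1+/+ range. The Exo1DA/DA mean of 7.82 ± 7.77 (SD, n = 8) stood against the Exo1-/- mean of 2.90 ± 2.23 (SD, n = 3), and 2 of the 3 null mice lay inside the Exo1DA/DA range (difference 4.92, 95% interval -5.23 to 16.5; exact permutation p = 0.339). Exo1DA/DA mice 296, 299, 302 and 303, at 13.7, 12.2, 22.8 and 6.36, were above all Exo1-/- mice, and the other 4 were at 3.61 or lower. Without mouse 302 the difference was 2.79. TW sites (a T before A or T, the WA motif of the other strand; 21 sites) had means of 2.96 and 0.604, with mouse 301 alone at 16.7. Exo1-/- mice 293, 294 and 295 were at 1.38, 0.0880 and 0.342 there. Without mouse 301 the Exo1DA/DA mean at TW sites fell to 1.01 and the difference from 2.36 to 0.404. The other 77 A:T sites had means of 3.86 and 3.12, and the second was 1.68 without mouse 295 and 4.42 without mouse 294, which turned the difference to -0.553.

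**Figure D2:**
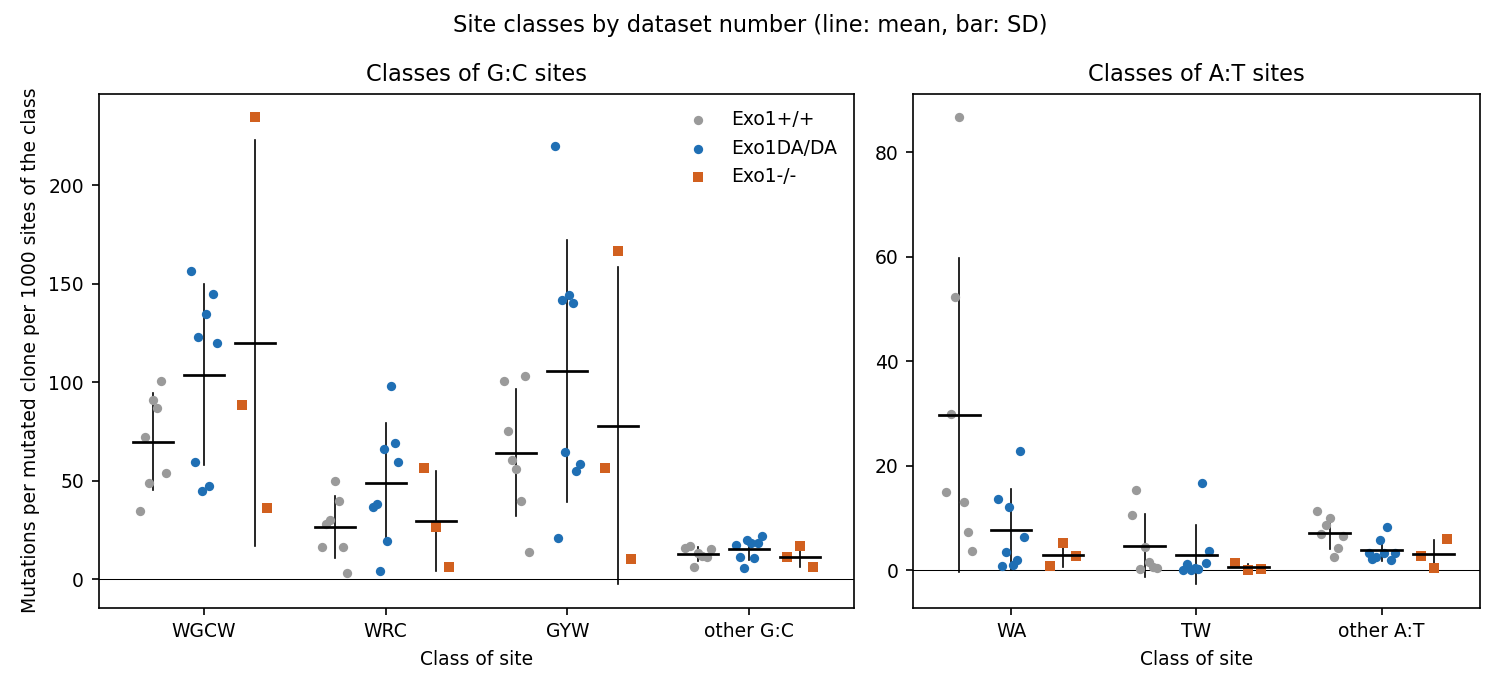
Mutation frequency of the 7 classes of sites, in mutations per mutated clone per 1000 sites of the class, with 1 point per mouse, the mean as a line and the SD as a bar. The highest and the lowest mutant at WGCW sites are both Exo1-/- (234.6 and 36.0), and at WA sites 4 Exo1DA/DA mice lie above the 3 Exo1-/- mice while the rest overlap.

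The 3 null mice held both the highest and the lowest load per clone of all 18 mice. Exo1-/- mice 293, 294 and 295 had 4.26, 8.35 and 2.02 mutations per mutated clone, while Exo1DA/DA mice had from 3.11 over 5.63 to 7.57. Clones with only 1 mutation made up 15.8%, 0.787% and 39.6% in the same Exo1-/- mice, and clones with 6 or more made up 28.2%, 89.1% and 5.85%. Mouse 294 was thus the most and mouse 295 the least mutated mutant. Differences of the means were 0.640 mutations (exact permutation p = 0.655, n = 8 and 3), -9.57 percentage points for clones with 1 mutation (p = 0.267) and -0.880 for clones with 6 or more (p = 0.970). Leaving out single mice moved these from -0.788 to 2.38, from -18.5 to 0.851 and from -18.5 to 23.1. Without mouse 294, Exo1DA/DA mice had fewer clones with 1 mutation by 18.5 percentage points (exact permutation p = 0.0444 without adjustment, n = 8 and 2), 1 of 473 values with a mouse left out, and the only one with p below 0.05.

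Clones with at least 1 mutation at A or T made up 23.4%, 15.4% and 38.2% in Exo1-/- mice and from 16.1% over 38.3% to 76.3% in Exo1DA/DA mice, with mouse 301 highest. Of the A:T mutations, 11.1%, 26.0% and 61.6% in Exo1-/- mice had a G:C mutation of the same sequence within 10 nucleotides. In the 7 Exo1DA/DA mice with 10 or more A:T mutations this ran from 2.71% over 42.6% to 70.4% (difference 1.02, 95% interval -45.0 to 43.7; exact permutation p = 0.975, n = 7 and 3). Mouse 300 had too few A:T mutations and was left out of this measure. Mutations that change the amino acid made up 58.2%, 60.4% and 52.4% in Exo1-/- mice and from 32.5% over 60.5% to 71.9% in Exo1DA/DA mice, where mouse 301 was lowest.

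**Figure D3:**
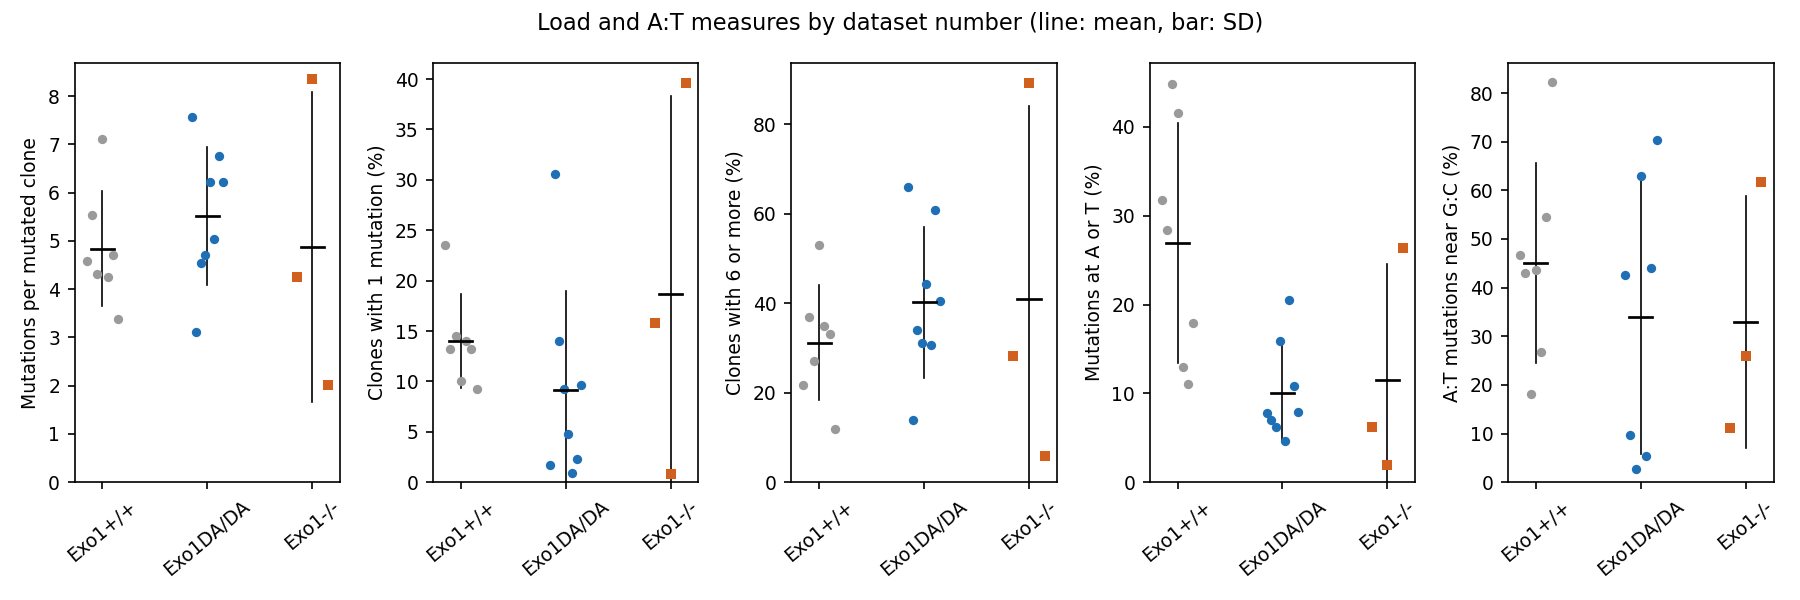
Mutations per mutated clone, percent of mutated clones with 1 and with 6 or more mutations, percent of mutations at A or T, and percent of A:T mutations with a G:C mutation within 10 nucleotides, with 1 point per mouse, the mean as a line and the SD as a bar. The Exo1-/- mice take the extremes of the load (2.02 and 8.35 mutations per clone), and 1 of them, mouse 295, lies at 26.4% of mutations at A or T among mutants that are otherwise at 20.5% or less.

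A position was counted as mutated in a genotype when, as the mean over mice, 1% or more of mutated clones were changed there. Of 256 positions, 39 were mutated in both mutants (15.2% of positions), 33 in Exo1DA/DA only (12.9%) and 13 in Exo1-/- only (5.08%), leaving 171 in neither. The shared positions were 54.2% of the 72 mutated in Exo1DA/DA and 75.0% of the 52 mutated in Exo1-/- mice. With 8 mice against 3 and unequal clone numbers, the lists have unequal chances to reach 1%. In a single mouse, 1% of mutated clones corresponded to 0.210 to 1.68 clones (Exo1DA/DA) and to 0.7095, 2.54 and 0.855 clones in Exo1-/- mice 293, 294 and 295, so 1 clone reaches 1% in 5 of the 8 and in 2 of the 3 mice. Just under the line lay position 52 in Exo1DA/DA (0.959%) and position 158 in Exo1-/- mice (0.871%), and just over it positions 222 (1.03%) and 111 (1.13%).

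Counted by site class, the shared positions lay mostly at AID hotspots. Of the 22 WGCW sites, 18 were mutated in both mutants, 0 in Exo1DA/DA only and 1 in Exo1-/- only. Of the 10 WRC and 7 GYW sites, 4 each were mutated in both. Of the other 95 G:C sites, 11 were mutated in both, 17 in Exo1DA/DA only and 5 in Exo1-/- only. Of the 24 WA sites, 0 were mutated in both, 5 in Exo1DA/DA only and 2 in Exo1-/- only, while 16 reached 1% in Exo1+/+ mice and 12 of those 16 in neither mutant.

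Support by single mice differed between the groups of positions. The 39 shared positions reached 1% in 2 or more Exo1DA/DA mice each, and 31 of them in 2 or more Exo1-/- mice. Of the 33 positions of Exo1DA/DA only, 17 rested on 1 mouse, and 12 of the 33 still reached 1% in at least 1 Exo1-/- mouse. Of the 13 of Exo1-/- only, 12 rested on 1 mouse. In Exo1DA/DA mice, 6 of the 13 reached 1% in no mouse, 5 in 1 mouse and 2 in 2 or more. When 2 mice were required in each genotype, 0 positions remained in Exo1-/- only against 25 in Exo1DA/DA only. A total of 11 positions reached 1% in 2 or more Exo1DA/DA mice and in no Exo1-/- mouse. Asking for 2 of 3 Exo1-/- mice but 2 of 8 Exo1DA/DA mice is an unequal bar, so these counts do not compare the genotypes.

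**Figure D4:**
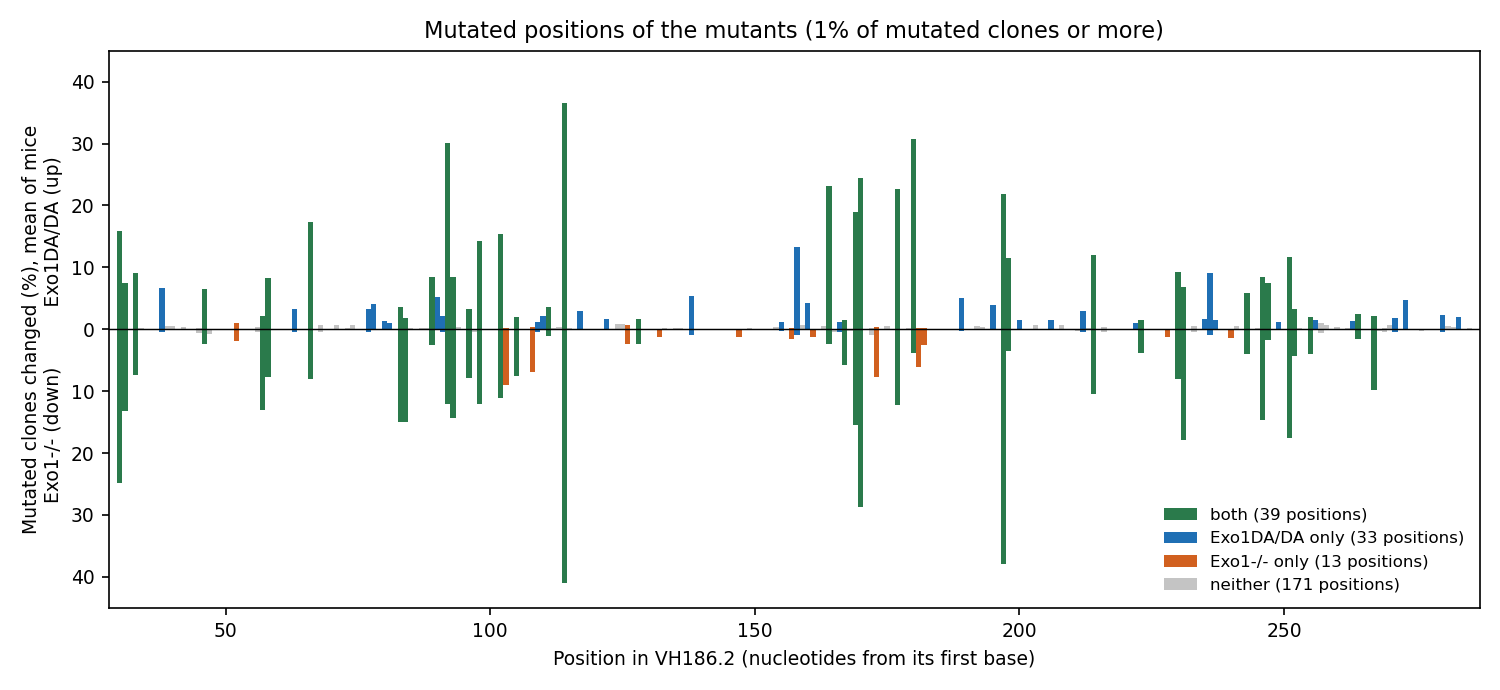
Percent of mutated clones changed at each of 256 positions of VH186.2 (numbered from its first base), as the mean of 8 Exo1DA/DA mice upwards and of 3 Exo1-/- mice downwards, coloured by the group of the position. Green bars are the 39 positions mutated in both mutants. Position 158, of Exo1DA/DA only, stands at 13.2%, or at 1.08% without mouse 301, and the bars at position 114 stand at 36.6% and 41.02%, or at 28.02% without mouse 301 and 17.7% without mouse 294.

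Positions 114 and 170 were among the 5 highest of both mutants. Position 114, the G of a WGCW hotspot and silent when changed to A, was changed in 29.6%, 87.6% and 5.85% of clones of the Exo1-/- mice and in 3.12% to 96.3% of those of the Exo1DA/DA mice (median 32.9%). The means were 36.6% (Exo1DA/DA; 28.02% without mouse 301) and 41.02% (Exo1-/-; 17.7% without mouse 294). Position 170, a GYW site where G170A replaces glycine 57 by aspartate, was changed in 21.2%, 62.5% and 2.37% and in 0.000926% to 80.8% (median 11.8%). Without mouse 294 the Exo1-/- mean there fell from 28.7% to 11.8%. Position 197, again a WGCW site, had 16.9%, 92.0% and 4.72% against a range from 0.000926% to 37.99% (median 27.55%), so mouse 294 alone stood above the Exo1DA/DA mice there. Without mouse 294 the Exo1-/- mean at position 197 fell from 37.9% to 10.8%.

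Positions 30, 197 and 231 were among the 5 highest of Exo1-/- mice but not of Exo1DA/DA mice, and positions 92, 164 and 180 the reverse, though all of them are mutated in both. This order rests on single mice. Without mouse 294, positions 92 and 98 (12.8% and 17.7%) stood above 197 and 231 in Exo1-/- mice, and without mouse 301 position 197 (25.1%) stood above 180 (21.2%) in Exo1DA/DA mice. Position 30 (WGCW, G30A silent) was changed in 36.7%, 15.3% and 22.2% of Exo1-/- clones and 15.9% ± 12.7 (SD, n = 8) of Exo1DA/DA clones. Position 231 (WGCW, C231T silent) was changed in 11.97%, 37.0% and 4.69%, against 6.89% ± 12.7 (SD, n = 8). Without mouse 294 the Exo1-/- mean at position 231 fell from 17.9% to 8.33%, and without mouse 296, at 37.6%, the Exo1DA/DA mean fell to 2.50%. At position 92 (WGCW) Exo1DA/DA mice reached 30.1% ± 22.0 (SD, n = 8), and Exo1-/- mice had 19.7%, 10.6% and 5.85%. Adding up the percents of the mice, G92A made up 80.7% of the changes there in Exo1DA/DA. G92C made up 58.5% in Exo1-/-, a share that mice with high percents weigh on most.

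At position 164, outside the marked hotspots, most Exo1DA/DA mice lay above the null mice. The site was changed, nearly always by G164A, which replaces serine 55 by asparagine, in 18.7% to 38.9% of clones in 6 Exo1DA/DA mice and in 0.00400% and 0.00278% in mice 298 and 301. In Exo1-/- mice it was changed in 1.42%, 4.33% and 1.17%. The 2 last-named Exo1DA/DA mice thus lay below all null mice (means 23.2% and 2.30%). At position 180 (WRC, C180T silent) the Exo1DA/DA mean of 30.8% contains 98.1% in mouse 301 and was 21.2% without it, against 8.47%, 1.97% and 1.19% in Exo1-/- mice.

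The opposite case was the pair of cytosines at 83 and 84, in codon 28 and outside any marked hotspot. Changes there, nearly all to T, were found in 21.2% and 23.6% of clones of Exo1-/- mice 293 and 294 at either position, and in 0.00351% and 0.00702% of those of mouse 295. In Exo1DA/DA mice position 83 was changed in 12.5%, 10.96%, 3.93% and 2.01% of clones of mice 299, 302, 303 and 298, and position 84 in 12.5% and 2.01% of those of mice 299 and 298. The other Exo1DA/DA mice were at 0.0238% or less at both. Positions 164, 83, 84 and the positions of 1 mutant only were named for these values, so their differences are a description and no p is given for them. Of the 85 positions that reached 1% in at least 1 mutant, which the same values selected, 3 had an exact permutation p below 0.05 before adjustment (3.53%), as had 6 of all 256 positions (2.34%). After adjustment over 256 positions 0 passed (lowest adjusted p 0.959), and at 0 positions did all mice of one mutant lie above all mice of the other.

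The sites behind these contrasts are given with 7 bases on either side, with the site in capitals.
Positions 83 and 84: ggctacaCCttcacca
Position 164: cctaataGtggtggt
Position 180 with 181 and 182: ctaagtaCAAtgagaag
Position 38: cttgtgaAgcctggg
Position 103: ctggatgCactgggt
In these windows position 180 is the C of TAC, a WRC motif, and position 38 is the A of AA, a WA motif.

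Positions of Exo1DA/DA only were led by C158T, which replaces proline 53 by leucine, with a mean of 13.2%. This was mouse 301, at 98.1%, and without it the mean was 1.08%, against 1.42%, 0.00393% and 1.19% in the Exo1-/- mice. The values of mice 293 and 295 are 1.01 and 1.02 clones, and each of these mice has 1 clone with all 4 changes of mouse 301. C236T (WRC, alanine 79 to valine) was carried by more mice: 35.7%, 9.32%, 14.3% and 13.3% in mice 296, 297, 300 and 302, 0.0779% or less in the others, and 1.42%, 0.00393% and 1.17% in Exo1-/- mice. Its mean fell from 9.10% to 5.30% without mouse 296. Among G:C sites G138A and C90T, both silent, followed with means of 5.37% and 5.23%. The first was 1.55% without mouse 296, at 32.2%, and the second 3.03% without mouse 303. C90T reached 8.75%, 12.5% and 20.6% in mice 297, 299 and 303 and 0.0234% at the highest in a null mouse.

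At A:T, position 38 led the positions of Exo1DA/DA only. It is a WA site, and its main change, A38G, replaces lysine 13 by arginine. It was changed in 22.4%, 1.75%, 0.0100%, 18.7%, 2.21%, 4.63%, 3.86% and 0% of clones in Exo1DA/DA mice 296 to 303, so 6 of 8 exceeded 1%. In Exo1-/- mice it was changed in 0.00846%, 0.00669% and 1.19%, and when sequences shared with other mice were left out, in 0.0216% or less of the clones of all 3. The means were 6.69% and 0.402%. In Exo1+/+ mice the mean was 5.26%, with a median of 1.70% and a highest value of 16.6%. Position 160, another WA site, reached 14.9%, 9.57% and 8.71% in mice 302, 299 and 303 and 0.115% or less in Exo1-/- mice. In Exo1+/+ mice its mean was 9.36%, with a median of 4.23% and 1 mouse at 44.06%. Position 273, a T outside the marked motifs, rested on mouse 301 at 32.4%, and without it the mean fell from 4.68% to 0.723%.

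Positions of Exo1-/- only were each carried by 1 or 2 of the 3 mice. Positions 103 (WGCW, mainly C103T, histidine 35 to tyrosine) and 108 (mainly G108T, tryptophan 36 to cysteine) were changed in 26.7% and 20.8% of clones of mouse 294 and in 0.0713% or less of those of mice 293 and 295. In Exo1DA/DA mice both were at 2.01% in mouse 298 and at 0.595% or less elsewhere, and without mouse 294 the Exo1-/- means fell from 8.94% to 0.0364% and from 6.95% to 0.00669%. Without shared sequences mouse 298 had 0.0106% at position 103. C173T (WRC, threonine 58 to isoleucine) was present in 18.3% and 4.72% of clones of mice 293 and 294 and in 0% of those of mouse 295. At A:T, A181G was at 18.3% in mouse 293 alone, A182G at 7.48% in mouse 294 alone and A126C at 7.04% in mouse 295 alone, and the highest Exo1DA/DA values at these positions were 1.85%, 1.78% and 2.99%.

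Codon 33, whose change from tryptophan to leucine raises the affinity for NP, was hit at its middle base in both mutants. G98T made up 97.9% of the changes at position 98 in the nuclease-dead and 96.8% in the null mice. Position 98 was changed in 1.90%, 0.790% and 33.5% of clones in Exo1-/- mice and in 0.928% to 50.2% (median 4.03%) in Exo1DA/DA mice. Without mouse 295 the Exo1-/- mean fell from 12.1% to 1.34%, and without mouse 299 the Exo1DA/DA mean fell from 14.3% to 9.13%. The ranges overlapped and the means of 14.3% and 12.1% were below the 28.9% of Exo1+/+ mice (between the mutants, exact permutation p = 0.885, n = 8 and 3). The flanking positions 97 and 99 were at 0.0391% or less in every Exo1DA/DA mouse, and position 97 reached 1.26% in mouse 295.

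**Figure D5:**
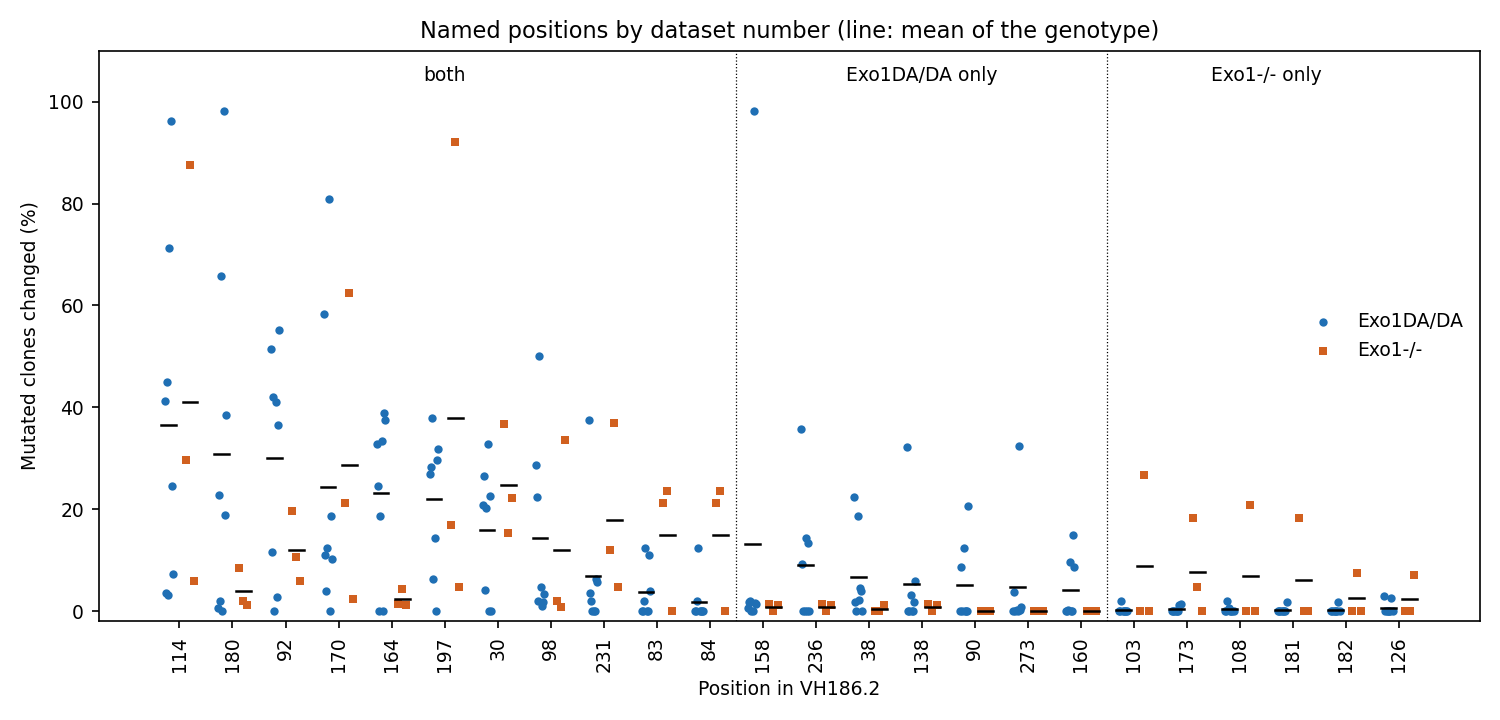
Percent of mutated clones changed at the 24 named positions that were mutated in at least 1 mutant, with 1 point per mouse and the mean of the genotype as a line, ordered by group. Single mice set several means, such as mouse 301 at position 158 (98.1%) and mouse 294 at positions 197, 103 and 108 (92.0%, 26.7% and 20.8%).

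Over all 256 positions, the mean percents correlated with Pearson's r = 0.740 and Spearman's rho = 0.581 across positions, and with r = 0.690 without mice 294 and 301. Between single mice, r had a median of 0.373 over 24 pairs with 1 mouse of each mutant (0.0757 to 0.601), 0.374 over 28 pairs of Exo1DA/DA mice (0.0492 to 0.642) and 0.274 over 3 pairs of Exo1-/- mice (0.167 to 0.557). Positions are not independent, since they sit together in lineages and share the base composition of hotspots, and these values describe the mice without a test.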

How the data were processed

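Spleen cDNA of 18 mice was amplified for VH186.2 and sequenced in paired ends on a MiSeq. Per the labels and the study's methods, the authors collapsed reads, annotated them in IMGT/HighV-QUEST and, in each of 1000 iterations, sampled a single sequence for every CDR3 clone. The 3 deposited tables, split by genotype, hold other values than counts: a line per mutation with its position, base change, hotspot type, dataset number and the iterations in which its sequence was drawn. Unmutated sequences have no line, so every denominator is the mutated clones.

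From these, each sequence was weighted by its iterations over 1000, and the dataset number was the unit. Its link to a mouse label is not given in the sources used here. Differences of means were tested with a 2-sided exact permutation test over every division of the 11 mice (smallest p 0.00606), adjusted by Benjamini-Hochberg within families, and 95% intervals come from inverting that test. PCR errors and counting error were not separated, and shares and limits at a count of 0 (3 counts) cover counting error only. Positions were named as the 5 highest of each mutant, the 5 highest of 1 mutant only, the 3 largest differences each way at G:C and at A:T, and codon 33. The members, lists and tests were chosen with earlier results of these data known. The steps that compute base changes, site classes and positions recovered all 2475 values of simulated lists. Alternatives included other windows, weights and thresholds, leaving out shared sequences, lineages or each mouse, ranks, and a chi-squared test on pooled counts. Calculations used pandas 2.3.3, SciPy 1.17.1 and NumPy 2.4.6 under Python 3.11.15.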

Additional observations from a re-analysis of the deposited data

Results flagged for a closer look

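Single Exo1DA/DA mice lay far from the other 7 in 19 of 69 sets of values looked at, where chance flags about 1 in 20 sets. The sets overlap, and positions were named for high or differing values, so the number cannot be read against that share. Mouse 301, with 98.1% of its clones in 1 lineage, had 5.11 T-to-C changes and 16.9 changes of any kind per mutated clone per 1000 T sites, 16.7 changes per 1000 TW sites, 6.94% of its mutations at TW sites and a replacement share of 32.5%. It was also the mouse with 98.1% of clones changed at position 158 and 32.4% at position 273. Mouse 303 had 1.996 C-to-A changes per 1000 C sites and 1.31 T-to-A changes per 1000 T sites, with 0.0391% of clones changed at position 97 and 1.85% at position 181. Mouse 296 had 32.2%, 37.6% and 35.7% of clones changed at positions 138, 231 and 236. Mouse 298 had 2.01% at both positions 103 and 108, mouse 299 had 12.5% at position 84 and mouse 302 had 1.78% at position 182. In mouse 297, 30.6% of mutated clones had 1 mutation.

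Outside the 256 nucleotides compared, 2 positions with a mean of 1% or more of clones changed in Exo1DA/DA mice exceeded every Exo1+/+ mouse in that mean. Position 19 was changed in 6.14% of clones (highest Exo1+/+ mouse 5.43%), with 1 mouse at 42.8%, against 0.475% in Exo1-/- mice. Position 289 was changed in 13.9% (highest Exo1+/+ mouse 5.98%), with 1 mouse at 98.1%, against 4.22% in Exo1-/- mice.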

How the results depend on the processing

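The unit of these values is that of the report, and each is the Exo1DA/DA mean minus the Exo1-/- mean. Of 427 recomputed differences 363 had the same sign and side of the threshold, 55 changed sign and 9 kept their sign and newly passed the threshold of 0.05. In all, 11 of the 427 had p below it, 2 of them with a changed sign, and leaving out 1 mouse changed the sign of 33 of 473. As reported, 0 of the 43 differences passed the threshold, and the cause of a change of sign was not tested.

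With each distinct set of mutations counted once, the sign changed to -3.85 for G-to-A changes, 0.0937 for C-to-G changes, 0.497 for C-to-A changes, -2.71 for C-to-T changes, -0.357 for A-to-G changes, 0.0389 for A-to-C changes, -0.332 for T-to-C changes, -3.48 for all changes at G, -2.12 for all changes at C, -0.0782 for all changes at A, -4.03 for the transition share at C, -0.0358 for other G:C sites, -0.0627 for TW sites, -0.299 for other A:T sites, 0.229 for the share at WGCW sites, -0.743 for the share at other G:C sites, -1.05 for the share at WA sites, -1.57 for the share at TW sites, -0.368 for mutations per clone, -1.34 for clones with an A:T mutation, -1.53 for the replacement share and -1.39 for A:T mutations near G:C ones. The C-to-A difference then had p = 0.0303 by the exact permutation test (n = 8 and 3), and the transition share at T, -11.4, had p = 0.0424 by the exact permutation test. The positions then numbered 19 in both mutants, 20 in Exo1DA/DA only and 8 in Exo1-/- only.

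With each lineage as 1 clone the sign changed to -2.53 for G-to-A changes, -0.347 for A-to-G changes, 0.0649 for A-to-C changes, -3.25 for all changes at G, -0.287 for all changes at C, -0.647 for GYW sites, -0.160 for mutations per clone and -0.278 for the replacement share, and 21 positions were in Exo1DA/DA only and 7 in Exo1-/- only.

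With all positions of the lists the values were -1.23 for A-to-G changes, -1.97 for the share at WA sites and 13.7 for clones with 6 or more mutations. Without sequences shared between mice the value was 4.92 for clones with 6 or more mutations, and with clones mutated in the window as denominator -0.412 for all changes at G. As differences of mean ranks they were 0 for C-to-G changes, 0.458 for A-to-C changes, -0.458 for T-to-C changes, 1.38 for the A:T share, 0.458 for WGCW sites, 1.38 for clones with 6 or more mutations and -0.238 for A:T mutations near G:C ones. The share of A:T mutations near a G:C mutation differed by -6.39 within 5 nucleotides and by -14.6 within 20.

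Pooled over clones, the chi-squared test, which has no spread between mice, gave differences of -10.5 at G, 1.90 at A (p = 0.000107) and 4.14 at T, and of -55.1 at WGCW (p = 1.39e-29), 26.9 at WRC (p = 1.42e-10), 1.86 at other G:C (p = 0.0199), 6.05 at WA (p = 1.25e-07), 3.39 at TW (p = 1.27e-06) and 1.86 at other A:T sites (p = 7.18e-06). At a threshold of 2% of clones 20 positions were in Exo1DA/DA only, and at 5% 19 were in both and 12 in Exo1DA/DA only. By percent of pooled clones 8 were in Exo1-/- only, and 0 when 2 mice had to reach 1%. The last rule asks for 2 of 3 Exo1-/- mice but 2 of 8 Exo1DA/DA mice.

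2 alternatives were chosen after seeing the data. Without mice 294 and 301 the sign changed to 0.809 for G-to-C changes, 0.0847 for C-to-G changes, -0.349 for T-to-C changes, 2.11 for the share of G among G:C, 49.5 for WGCW sites, -1.17 for other A:T sites, 1.12 for the share at WGCW sites, -0.261 for the share at WRC sites, -0.120 for the share at TW sites and 24.5 for clones with 6 or more mutations. Without the interleaved sequence numbers of mice 295 and 296 no difference changed its sign.

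Leaving out each mouse in turn gave ranges of -11.1 to 21.2 for all changes at G, -9.88 to 15.4 for A:T mutations near G:C ones, -18.5 to 23.1 for clones with 6 or more mutations, -0.122 to 0.8004 for T-to-C changes, -0.0844 to 0.847 for A-to-G changes, -6.80 to 0.372 for G-to-C changes, -0.952 to 0.264 for C-to-G changes, -5.61 to 0.219 for the share of G among G:C, -57.8 to 41.5 for WGCW sites, -0.553 to 2.19 for other A:T sites, -18.5 to 0.851 for clones with 1 mutation, -7.02 to 16.9 for G-to-A changes, -4.98 to 11.4 for C-to-T changes, -0.326 to 0.334 for A-to-C changes, -5.12 to 11.3 for all changes at C, -0.796 to 22.6 for the transition share at C, -6.23 to 5.98 for the A:T share, -5.94 to 72.4 for GYW sites, -8.23 to 2.94 for the share at other A:T sites and -0.788 to 2.38 for mutations per clone. The counts of positions moved by less than 1.5 times.

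No paired analysis was possible because the Exo1DA/DA and Exo1-/- groups are different mice and the lists carry dataset numbers that are not linked to the mouse labels. Depth limits positions with few changed clones, since 0 changed clones would allow up to 0.486% in Exo1DA/DA and 0.730% in Exo1-/- mice.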

Other observations

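Positions changed in 1% or more of the clones of a single mouse numbered 13 to 71 in Exo1DA/DA mice and 44, 41 and 41 in Exo1-/- mice 293, 294 and 295. The lowest of these was mouse 301 and the highest mouse 302. At WA sites, mouse 302 had 12 such positions and the other Exo1DA/DA mice 1 to 4, while the Exo1-/- mice had 1, 3 and 3 and the Exo1+/+ mice 1 to 15.

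The 4 changes that led mouse 301 were also together in at least 1 clone of 6 of the 7 Exo1+/+ mice, in 0.524% to 2.70% of their clones.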
